A study of Mus musculus with 15 samples.

Results

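The genes described here were 10 named genes of plasma lipoproteins: Apoa1, Apoa2, Apoa4, Apoa5, Apob, Apoc1, Apoc2, Apoc3 and Apoe, which encode apolipoproteins, and Mttp, which encodes the microsomal triglyceride transfer protein. They were chosen by name from their function, not by a measured value, and all 10 were found once among the 37991 identifiers of the liver count table. Each of the 10 also passed the filter on low counts, among 14258 genes tested. Bulk RNA-seq was available for livers of female C57BL/6 mice on chow in 3 groups of 5: young WT (S6K1 wild-type, 90 d), old WT (S6K1 wild-type, 600 d) and old KO (600 d, whole-body deletion of S6K1, encoded by Rps6kb1). The mice came from crosses of heterozygotes, no animal was given a drug, and there was no young KO group, so the effect of the deletion was measured at the old age alone.

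Lipoproteins carry triglycerides and cholesterol through the plasma inside a shell of phospholipid and apolipoproteins. Hepatocytes build very-low-density lipoprotein (VLDL) around a single APOB molecule, which MTTP loads with lipid in the endoplasmic reticulum, while APOA1 and APOA2 form the scaffold of high-density lipoprotein (HDL). The small APOC proteins, APOA5 and APOE move between particles and set how fast lipoprotein lipase empties them and how fast receptors of the liver take up the remnants.

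Total counts ranged from 21801754 to 38065359 in young WT, from 27063911 to 31990482 in old WT and from 21984658 to 27923739 in old KO. Rps6kb1 stood at 38.3 ± 4.21 CPM (counts scaled to a common library size with TMM factors; mean ± SD, n = 5) in old WT and 17.0 ± 2.23 in old KO, a log2 fold change of -1.17, and the groups did not overlap. Across the 14258 genes, the libraries correlated with the others of their own group at a mean r of 0.975 (old WT 7) to 0.985. The summed CPM of 18 hepatocyte marker genes was lowest in young WT 6, at 106755 against 153895 to 166503 in the other young WT livers. That sum was carried mainly by Alb, at 89803 ± 16970, 85062 ± 16823 and 98403 ± 12197 CPM in young WT, old WT and old KO. The counts of members called that are given below were the same without young WT 6 and without old WT 7. In bulk liver, fewer cells of a type and less RNA per cell cannot be told apart.

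The 10 genes together took 4.08 ± 0.197% of all counts in young WT, 3.82 ± 0.132% in old WT and 3.87 ± 0.192% in old KO. In the NCBIM37 (mm9) annotation, 7 of them lie in 2 clusters. Apoa1 (chromosome 9, 46036663 to 46038549, plus strand), Apoc3, Apoa4 and Apoa5 follow one another on chromosome 9, with gene starts 7.06, 12.1 and 40.1 kb from that of Apoa1. Apoe, Apoc1 and Apoc2 lie together on the minus strand of chromosome 7, with the starts of Apoc1 and Apoc2 at -6.51 and -17.7 kb from that of Apoe. Apoa2 (chromosome 1), Mttp (chromosome 3) and Apob (chromosome 12) stand alone. The longest coding sequences ranged from 267 bases (Apoc1) to 13518 bases (Apob).

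Compared per kilobase of exon (RPKM, the CPM divided by exon kilobases), the highest mean was 57.8 times the lowest in young WT, 69.6 times in old WT and 122 times in old KO. In young WT the mean RPKM ran from Apoa2 (7143 ± 430.5), Apoe (6460 ± 510.2) and Apoa1 (6275 ± 1164) through Apoc1 (4064 ± 327) to Apoc3 (1034 ± 224), Apob (784 ± 64.8), Apoa5 (501 ± 69.7), Apoa4 (334 ± 209), Apoc2 (211 ± 44.8) and Mttp (124 ± 7.52). The ranges of Apoa2 and Apoe overlapped, as did those of Apoe and Apoa1, of Apoc3 and Apob, of Apoa5 and Apoa4 and of Apoa4 and Apoc2. In old WT Apoc1 (5153 ± 365) stood above Apoa1 (3889 ± 1271) in 4 of 5 libraries, with overlapping ranges. Apoa4 moved from the eighth place in young WT to the ninth in old WT (113 ± 63.6 RPKM, overlapping Mttp at 106 ± 25.9) and to the last in old KO (68.7 ± 29.8 RPKM, below Mttp at 97.7 ± 18.6 in 5 of 5 libraries, with overlapping ranges).

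**Figure D1:**
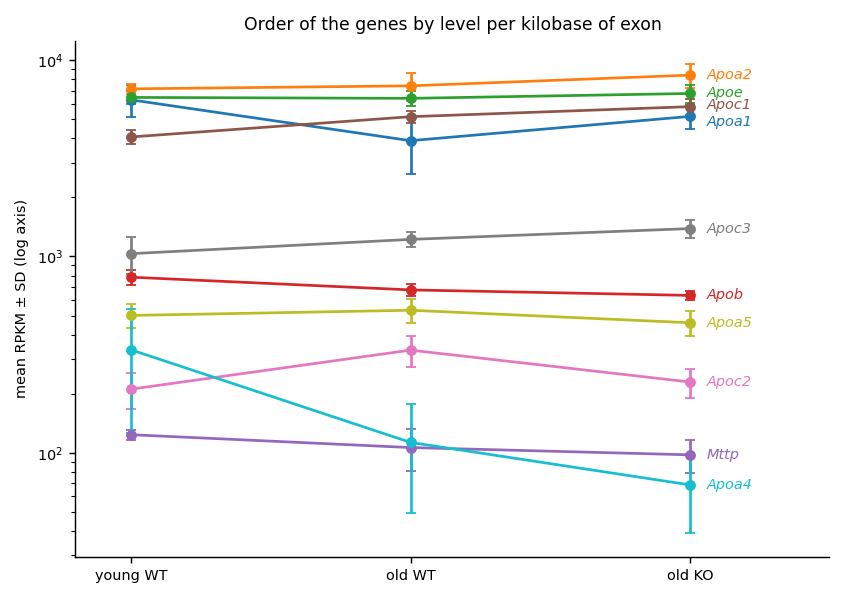
Mean RPKM of each gene (log axis, with the SD over 5 libraries) in young WT, old WT and old KO liver, joined by a line for each gene. Apoa1 and Apoc1 change places between young WT and old WT, and Apoa4 drops from 334 RPKM in young WT to 68.7 in old KO.

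The first comparison, old WT against young WT, asked which of these genes differ with age in wild-type liver. Of the 10 genes, 4 passed the test (edgeR quasi-likelihood test, Benjamini-Hochberg adjusted p under 0.05 over all 14258 genes), where 18.8% of all genes tested passed. Apoc1 and Apoc2 were higher in old WT (9.92% of all genes were called higher) and Apoa1 and Apoa4 were lower (8.91% were called lower). The groups did not overlap for Apoc1 and Apoc2, which was so for 11.4% of all genes. The median log2 fold change of the 10 genes was 0.02, beside 0.01 over all genes tested, with 5 genes above 0 and 5 below.

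The second comparison, old KO against old WT, asked what the deletion does in old liver. By edgeR, 0 of the 10 genes passed, where 0.533% of all genes did. At an unadjusted p under 0.05 there was 1, Apoc2, where 11.6% of all genes stood under it. DESeq2 called 1, also Apoc2, where it called 305 of all genes tested. With limma voom 0 of the 10 were called, where it called 23 of all genes. For 0 of the 10 genes did the groups not overlap, where 3.2% of all genes did not. The median log2 fold change was -0.01 over the 10 genes and 0.00079 over all genes.

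The third comparison, old KO against young WT, shares its libraries with the other 2 and combines age and genotype. It called 4 of the 10 genes, where 23.3% of all genes were called. Apoc1 and Apoc3 were higher (12.0% of all genes were called higher) and Apoa4 and Apob were lower (11.3% were called lower). The groups did not overlap for these 4 genes, which was so for 13.9% of all genes. The median log2 fold change was -0.03 over the 10 genes, beside -0.01 over all genes.

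**Figure D2:**
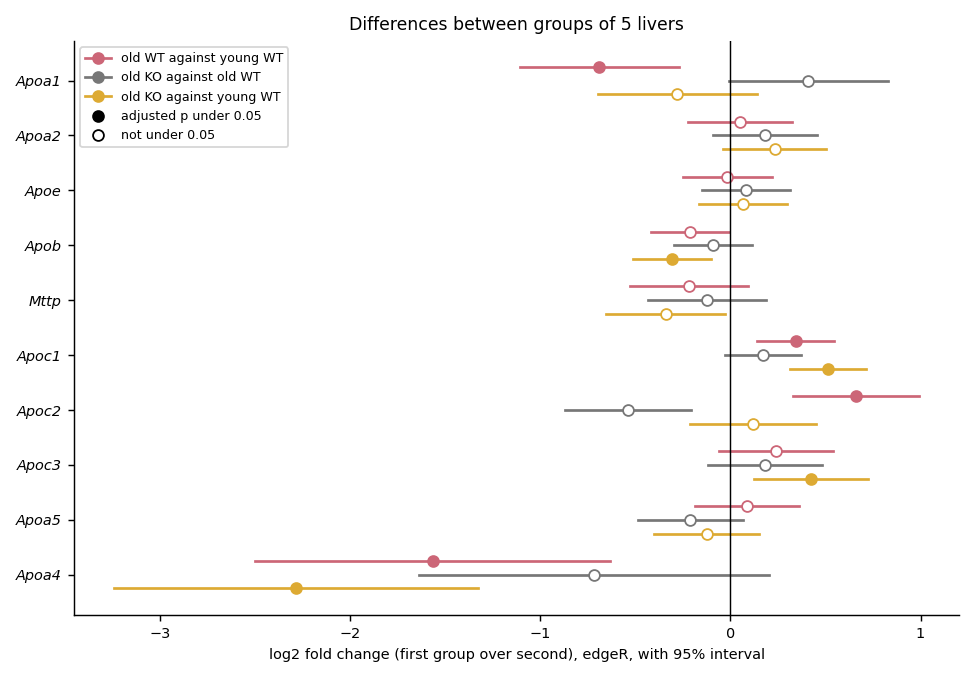
Log2 fold change of each gene with its 95% interval (edgeR) in the 3 comparisons, with filled points for an adjusted p under 0.05. In old WT against young WT, Apoa1 and Apoa4 lie below 0 and Apoc1 and Apoc2 above it; no point of old KO against old WT is filled.

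APOA1, the main protein of HDL and the activator of the enzyme that esterifies plasma cholesterol, fell in mRNA with age. Apoa1 stood at 7667, 10239, 6969, 7263 and 6640 CPM in young WT 1, 2, 3, 4 and 6. In old WT 1, 4, 5, 7 and 10 it stood at 2819, 5365, 4352, 7095 and 4406 CPM. All 5 old WT livers lay below the young WT mean, but old WT 7 lay inside the young range. The log2 fold change was -0.69 (SE 0.198, adjusted p = 0.0241, edgeR), from 7756 ± 1439 to 4807 ± 1571 CPM. The call was lost without young WT 2 or without old WT 5, at an adjusted p of up to 0.069. The exact two-sided permutation test gave p = 0.0238 with age. After Benjamini-Hochberg adjustment over the 10 genes and 3 comparisons it was 0.0794, so that test did not call Apoa1.

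In old KO 1, 2, 4, 5 and 6, Apoa1 stood at 5476, 6417, 6485, 7783 and 5787 CPM. All 5 lay above the old WT mean, and the range overlapped both other groups. The log2 fold change was 0.41 against old WT (95% interval -0.01 to 0.83, adjusted p = 0.439, edgeR) and -0.28 against young WT (-0.70 to 0.14, adjusted p = 0.321). Apoa1 and the summed hepatocyte markers, mainly Alb, varied in the same direction over the 15 libraries (Pearson r = 0.61 and Spearman rho = 0.60 of deviations from the group means). Without the 2 libraries farthest from the median, r was 0.49. The part of the markers in the Apoa1 difference was not tested.

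Apoa2, the second HDL protein, passed the test in no comparison. Its means were 3836 ± 231 CPM in young WT, 3973 ± 643 in old WT and 4505 ± 617 in old KO. The log2 fold changes were 0.05 (95% interval -0.22 to 0.32) with age, 0.18 (-0.09 to 0.45) between the old groups and 0.23 (-0.04 to 0.50) for old KO against young WT. Old KO 1, at 3407 CPM, lay apart from the other old KO livers (4706 to 4852 CPM).

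APOB is the structural protein of VLDL, and MTTP is required to lipidate it. Apob stood at 9792, 10196, 11435, 11958 and 11265 CPM in young WT 1, 2, 3, 4 and 6. It stood at 10127, 9769, 8357, 9393 and 9437 CPM in old WT 1, 4, 5, 7 and 10, and at 9183, 8513, 8237, 9039 and 9175 CPM in old KO 1, 2, 4, 5 and 6. Every old KO liver lay below every young WT liver, and old WT lay between them and overlapped both. Old KO was lower than young WT by a log2 fold change of -0.31 (SE 0.0969, adjusted p = 0.0313, edgeR). With age alone the change was -0.21 (95% interval -0.42 to -0.01, adjusted p = 0.133), and between the old groups it was -0.09 (-0.30 to 0.11, adjusted p = 0.785).

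Over the 15 libraries, Apob was the member that followed the summed macrophage markers most closely (r = 0.74, rho = 0.71 of deviations from the group means). It also went with the leukocyte (r = 0.59) and endothelial markers (0.56). It went weakly the other way to gut (-0.125), adipocyte and mesothelial (-0.16) and bile duct markers (-0.10). The part of these cells in the Apob difference was not tested. The call of Apob in old KO against young WT was lost without young WT 3 or 4 or old KO 2, 4 or 5, with adjusted p-values of up to 0.0795. DESeq2 also called Apob in old WT against young WT, at an adjusted p of 0.0186.

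Mttp varied little in young WT, from 503 to 582 CPM. In old WT, 4 of 5 livers lay between 390 and 445 CPM, below all young WT livers, and old WT 10 stood at 671 CPM, above them all. The log2 fold change with age was -0.22 (95% interval -0.53 to 0.09, adjusted p = 0.319, edgeR), and without old WT 10 it was -0.38 and Mttp was called (adjusted p = 0.0398). Old KO against young WT gave -0.34 (-0.65 to -0.03, adjusted p = 0.105) and old KO against old WT -0.12 (-0.43 to 0.19, adjusted p = 0.819). Mttp was also called in old KO against young WT without old WT 10 or without old KO 6, at adjusted p-values down to 0.0322. The log2 ratio of Apob to Mttp within a library was 4.32 ± 0.202 in young WT, 4.35 ± 0.316 in old WT and 4.38 ± 0.272 in old KO, with exact permutation p-values of 0.73 to 0.897.

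APOC2 is the cofactor that lipoprotein lipase needs, and its mRNA had the larger of the 2 rises with age. Apoc2 stood at 231, 249, 148, 176 and 181 CPM in young WT 1, 2, 3, 4 and 6, and at 309, 277, 313, 254 and 402 CPM in old WT 1, 4, 5, 7 and 10. Every old WT liver stood above every young WT liver, with old WT 7 just above young WT 2. The log2 fold change was 0.66 (SE 0.157, adjusted p = 0.00941, edgeR), and Apoc2 was called whichever of the 15 libraries was left out.

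In old KO 1, 2, 4, 5 and 6, Apoc2 stood at 233, 170, 263, 191 and 212 CPM, and 1 old KO liver lay inside the old WT range. All 5 old KO livers lay below the old WT mean. The log2 fold change against old WT was -0.54 (95% interval -0.87 to -0.21), with an unadjusted p of 0.00334 and an adjusted p of 0.155 by edgeR. The exact two-sided permutation test over the 10 livers gave p = 0.0159, where the smallest it can give is 0.00794. After Benjamini-Hochberg adjustment over the members and comparisons this p was 0.0595, so that test did not call Apoc2. DESeq2 gave an adjusted p of 0.0486. Against young WT, the old KO level differed by 0.12 (-0.21 to 0.45, adjusted p = 0.611).

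Macrophages also express genes of the Apoe cluster, so the macrophage list is given beside Apoc2. The summed CPM of 17 Kupffer cell and macrophage markers ranged from 307 to 587 in young WT, from 442 to 828 in old WT and from 241 to 392 in old KO. In old KO against old WT 7 of the 17 fell, where 0.533% of all genes were called in either direction. These were Cd68, Clec4f, Vsig4, Cd5l, C1qa, C1qb and C1qc; none of the 17 was at 0 counts in a group. The 7 calls became 0 without old WT 1 or 4 or old KO 2, 4 or 6, 1 without old KO 5, 2 without old WT 10, 4 without young WT 4 or old WT 7, 2 with limma voom and 0 with the replicate block. Within groups, Apoc2 went the opposite way to the summed markers (r = -0.58, rho = -0.61 over 15 libraries). It did so too for endothelial (r = -0.62), stellate cell (-0.59) and leukocyte markers (-0.50), but not for markers of gut epithelium (0.31). Apoa4 (-0.63) and Apoc3 (-0.59) were about as opposite to the macrophage markers, while Apob went with them (0.74). The part of macrophages or of the other cells in the Apoc2 difference was not tested. Of the exon bases of Apoc2, 112 (12.0%) are shared with Apoc4 on the same strand, and Apoc4, at 426 ± 72.2, 376 ± 19.8 and 419 ± 75.5 CPM in young WT, old WT and old KO, passed no test. Reads in the shared bases cannot be told apart.

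Apoc1, which slows receptor uptake of particles, rose with age and was highest in old KO. It stood at 1979, 2046, 2204, 2419 and 2265 CPM in young WT 1, 2, 3, 4 and 6. It stood at 2798, 2521, 3061, 2689 and 2768 CPM in old WT 1, 4, 5, 7 and 10, and at 2639, 3065, 3283, 3369 and 3209 CPM in old KO 1, 2, 4, 5 and 6. Both old groups lay wholly above young WT and overlapped each other. With age the log2 fold change was 0.34 (SE 0.0947, adjusted p = 0.0205, edgeR) and for old KO it was 0.51 from young WT (SE 0.0949, adjusted p = 0.00165). Between the old groups it was 0.17 (95% interval -0.03 to 0.37, adjusted p = 0.52). The call with age was lost without young WT 1 or 2 or old WT 5, at adjusted p-values of up to 0.0591, and the call of old KO against young WT held whichever library was left out.

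Apoc3, an inhibitor of lipoprotein lipase and of remnant uptake, was called in old KO against young WT alone. It stood at 1189, 1158, 1055, 1186 and 654 CPM in young WT 1, 2, 3, 4 and 6, at 1140, 1177, 1389, 1178 and 1311 CPM in old WT 1, 4, 5, 7 and 10, and at 1207, 1311, 1477, 1449 and 1589 CPM in old KO 1, 2, 4, 5 and 6. Young WT 6 lay far below the rest, and old KO 1 lay only just above young WT 1. Apoc3 differed by a log2 fold change of 0.42 in old KO against young WT (SE 0.141, edgeR adjusted p = 0.0398), by 0.24 with age (95% interval -0.06 to 0.54, adjusted p = 0.248) and by 0.18 between the old groups (-0.12 to 0.48, adjusted p = 0.674). Without young WT 6 the first of these was 0.30 and still called (adjusted p = 0.0355). The call was lost without young WT 3 or old KO 4, 5 or 6, at adjusted p-values of up to 0.0814.

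Apoa5, which helps lipoprotein lipase act on triglyceride-rich particles, was called in no comparison. It averaged 1262 ± 175 CPM in young WT, 1340 ± 185 in old WT and 1158 ± 172 in old KO. Its log2 fold change was 0.09 with age (95% interval -0.19 to 0.36), -0.21 between the old groups (-0.49 to 0.06) and -0.12 for old KO against young WT (-0.40 to 0.15). The lowest of the 15 livers was young WT 6, at 953 CPM.

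Apoe, the ligand by which remnants bind hepatic receptors, had the most counts of the 10 genes in each group and was also called in no comparison. It averaged 12790 ± 1010 CPM in young WT, 12653 ± 1071 in old WT and 13395 ± 1475 in old KO. The log2 fold changes were -0.02 (95% interval -0.25 to 0.22), 0.08 (-0.15 to 0.32) and 0.07 (-0.17 to 0.30) in the same order of comparisons.

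Apoa4, an apolipoprotein of triglyceride-rich particles and HDL that is made in intestine and, in mice, in liver, varied most of all. In young WT 1, 2, 3, 4 and 6 it stood at 914, 1109, 299, 293 and 420 CPM. In old WT 1, 4, 5, 7 and 10 it stood at 97.3, 142, 127, 317 and 343 CPM, and in old KO 1, 2, 4, 5 and 6 at 95.2, 77.8, 145, 95.2 and 210 CPM. Young WT 1 and 2 stood far above the other 3 young livers, old WT 7 and 10 reached into the young range, and every old KO liver lay below every young WT liver.

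Apoa4 changed by -1.57 on the log2 scale with age (SE 0.441, adjusted p = 0.0222, edgeR) and by -2.28 in old KO from young WT (SE 0.452, adjusted p = 0.00247). Between the old groups it was -0.72 (95% interval -1.64 to 0.20, adjusted p = 0.552). The call with age was lost without young WT 1 or 2 or old WT 1, 4 or 5, where the fold change ranged to -1.23 and the adjusted p to 0.068. The exact permutation test also did not call Apoa4 with age (p = 0.0476, adjusted p = 0.13). The call of old KO against young WT held without any 1 library, from -1.95 (without young WT 2) to -2.55. The coefficient of variation of Apoa4 within groups was 43.4% to 62.4%, where that of the other members was 4.87% to 32.7%.

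Since Apoa4 is also an enterocyte gene, markers of gut epithelium were examined. Of 10 such genes, 5 (Sis, Alpi, Cdx1, Cdx2 and Rbp2) were at 0 counts in every group. The summed CPM of the 10 genes ranged from 112 to 182 in young WT, from 66.5 to 152 in old WT and from 43.1 to 124 in old KO, and it was carried mainly by Fabp2 (92.9 ± 28.1, 78.9 ± 34.3 and 54.3 ± 22.8 CPM), which liver also expresses, and Lgals4. Of the 3 that passed the filter, edgeR called 0 with age (1 at an unadjusted p under 0.05) and DESeq2 and limma voom called 1, Vil1, from 0.113 CPM in young WT to 0.365 in old WT. Within groups, Apoa4 and the summed gut markers had a weak correlation (r = 0.20, rho = 0.20 over 15 libraries). The members closest to the gut markers were Apoa2 (r = 0.675) and Mttp (0.62), while Apoa1 (-0.18) and Apob (-0.125) went weakly the other way. The part of gut tissue in the values of these genes was not tested.

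Of the 8 marker lists, the summed endothelial markers followed Apoa4 most closely, in the opposite direction (r = -0.88, rho = -0.87 of deviations from the group means, and r = -0.81 without the 2 libraries farthest from the median). The summed CPM of these 8 genes was 216, 196, 374, 331 and 278 in young WT 1, 2, 3, 4 and 6, ranged from 164 to 287 in old WT and from 210 to 237 in old KO, and none was at 0 counts. Young WT 1 and 2, the highest for Apoa4, were the lowest young WT livers for these markers, and old WT 7 and 10 were likewise the lowest of old WT. With age 0 of the 8 rose and 2, Stab2 and Lyve1, fell, where 8.91% of all genes were called lower. The median log2 fold change of the 8 was -0.40, and Apoa4 also fell. Without young WT 3 or 4 or old WT 5, 7 or 10, 1 of the 8 fell. The macrophage list (r = -0.63) and the stellate cell list (r = -0.57) also went the opposite way to Apoa4 within groups. The part of these cells in the Apoa4 values was not tested. In the annotation, 34.8% of the exon bases of Apoa4 are overlapped on the opposite strand by Gm10680, which had 2 counts over all 15 libraries.

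**Figure D3:**
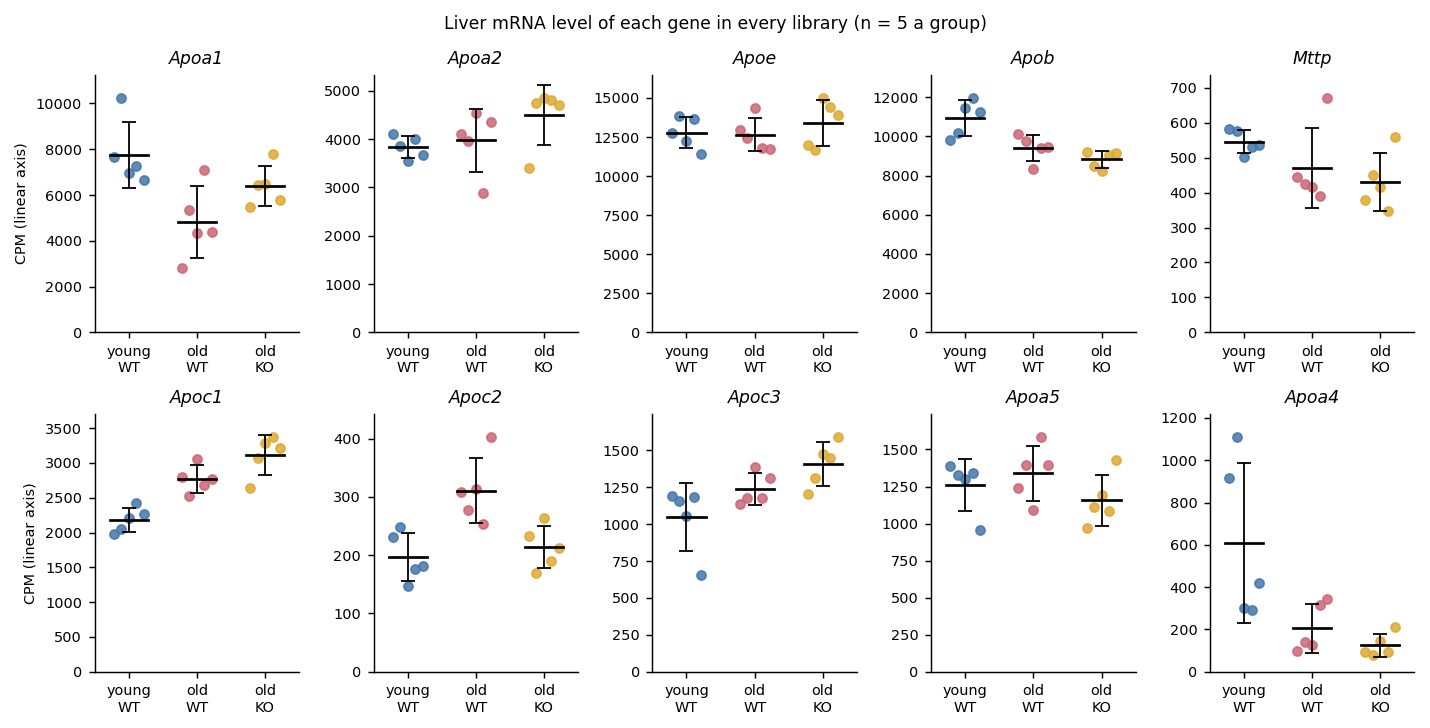
CPM of each gene (linear axis from 0) in each of the 15 libraries, with the mean (bar) and SD (whiskers) of each group of 5. Both old groups lie above young WT for Apoc1, old WT alone lies above young WT for Apoc2, and for Apoa4 the high values are young WT 1 (914) and young WT 2 (1109).

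A ratio of 2 genes of a cluster within a library measures unequal change of the pair without any scaling of libraries. With age, the called genes of the Apoa1 cluster (Apoa1 and Apoa4) were both lower and those of the Apoe cluster (Apoc1 and Apoc2) both higher, while Apoc3, Apoa5 and Apoe passed no test. The 6 ratios examined were chosen after the single genes had been seen, which gave 18 comparisons, each with an exact two-sided permutation test over 10 livers. The log2 ratio of Apoa1 to its neighbour Apoc3 was 2.90 ± 0.322 in young WT and 1.90 ± 0.5 in old WT, a difference of -1.01 with no overlap (exact p = 0.00794, the smallest possible). In old KO it was 2.18 ± 0.209, which overlapped old WT (difference 0.28, exact p = 0.286) and not young WT (difference -0.72, exact p = 0.00794).

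The log2 ratio of Apoc3 to Apoa4 rose by 1.79 with age (exact p = 0.0317) and that of Apoa4 to Apoa5 changed by -1.61 (exact p = 0.0238), both with overlapping ranges. In the other cluster, the log2 ratio of Apoc1 to Apoe differed by 0.36 between old WT and young WT, with old WT higher (exact p = 0.00794), and by 0.09 between old KO and old WT (exact p = 0.175). The log2 ratio of Apoc2 to Apoc1 was -3.17 ± 0.235 in old WT and -3.87 ± 0.299 in old KO, a difference of -0.71 with no overlap (exact p = 0.00794), while it differed by 0.32 between old WT and young WT (exact p = 0.151). Over all 14039 pairs of adjacent tested genes with counts in every library, the log2 ratio did not overlap between groups for 11.2% with age, 3.08% between the old groups and 13.3% for old KO against young WT. Among the 5 ratios within the clusters it did not overlap for 2, 1 and 4 in the same order of comparisons.

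The genes around the clusters were counted over 200 kb on each side. Over all genes tested, 8.91% were called lower with age. Around Apoa1, 3 other genes were tested and 1, Sik3, which encodes a kinase, was called lower with age, by -0.46 on the log2 scale (SE 0.104, edgeR adjusted p = 0.00687). Around Apoe, 15 others were tested and 2 were called lower with age. These were Tomm40, a pore of the mitochondrial outer membrane (-0.46, SE 0.152, adjusted p = 0.0456), and Pvrl2, a nectin of cell junctions (-0.56, SE 0.156, adjusted p = 0.021), both next to Apoe on the side away from Apoc1. Over the neighbours listed for Apoe, the count was 0 without young WT 1 or 2 or old WT 4 and with the replicate block. It was 2 without young WT 6, 3 without old WT 7 and 1 without any other library, and it was also 1 with limma voom, total counts, upper quartile factors, no filter on low counts or the 10 libraries of the contrast. Over those listed for Apoa1 it was 3 without young WT 6 and 2 without young WT 2. Between the old groups, 0 of these neighbours were called by edgeR, and among the neighbours listed for the 2 clusters 1 and 0 stood at an unadjusted p under 0.05 and DESeq2 and limma voom called 0.

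**Figure D4:**
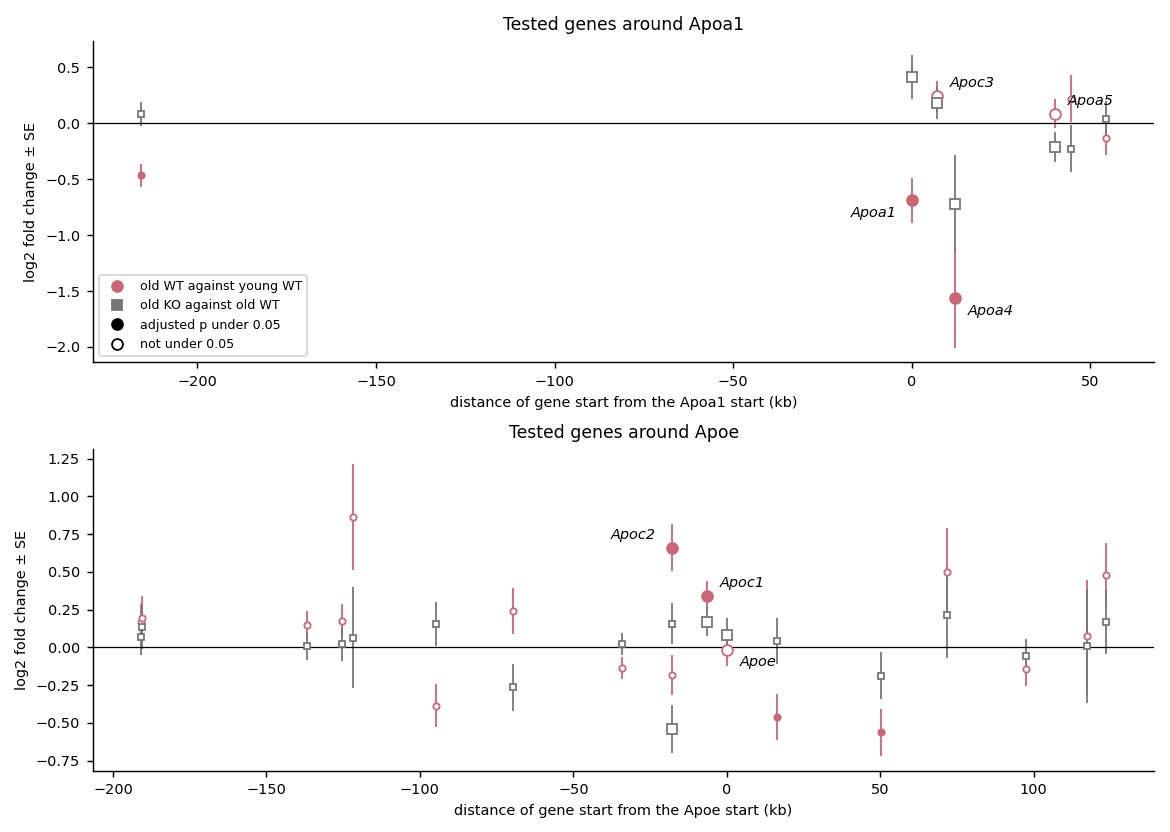
Log2 fold change ± SE of the tested genes around Apoa1 (top) and Apoe (bottom) against the distance of their start from that of the named gene, in kb, for old WT against young WT (circles) and old KO against old WT (squares); large symbols are the members and filled ones passed the test. Apoa1 and Apoa4 lie below 0 with age, and Apoc3, between them, lies above it with an open symbol.

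Promoter windows from RefSeq (GRCm38.p6) were matched by symbol for 8 of the 10 genes, as 12 windows; Apoc1 and Apoc3 had none. Those of the genes called in old WT against young WT are shown, because these are the genes whose levels differed with age. Capitals mark matches, on either strand, to TATAAA (the TATA box), to AGGTCA (the core of nuclear receptor sites), to GTTAAT (part of an HNF1 site) and to the HNF4-like strings CAAAGTCCA or else CAAAGGTCA.
Apoa1 (chr9:46228380-46228679, plus strand): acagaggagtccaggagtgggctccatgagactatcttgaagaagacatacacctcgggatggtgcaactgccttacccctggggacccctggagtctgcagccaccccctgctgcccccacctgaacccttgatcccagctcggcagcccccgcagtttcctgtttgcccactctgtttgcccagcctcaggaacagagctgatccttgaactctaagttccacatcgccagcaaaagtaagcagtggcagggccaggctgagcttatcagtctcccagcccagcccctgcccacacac
Apoa4 (chr9:46240594-46240893, plus strand): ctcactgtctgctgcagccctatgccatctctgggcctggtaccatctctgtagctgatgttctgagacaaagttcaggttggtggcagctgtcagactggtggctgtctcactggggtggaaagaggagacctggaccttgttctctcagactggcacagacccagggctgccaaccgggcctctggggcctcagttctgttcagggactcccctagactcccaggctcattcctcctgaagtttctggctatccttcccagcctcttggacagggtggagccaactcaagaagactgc
Apoc2 (chr7:19677892-19678191, minus strand): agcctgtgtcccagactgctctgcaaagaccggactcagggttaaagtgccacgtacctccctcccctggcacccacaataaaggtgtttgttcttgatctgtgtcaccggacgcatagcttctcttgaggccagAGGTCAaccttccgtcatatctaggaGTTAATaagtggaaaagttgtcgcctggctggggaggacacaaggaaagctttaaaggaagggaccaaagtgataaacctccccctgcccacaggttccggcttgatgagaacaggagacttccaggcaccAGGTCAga
The Apoc2 window held AGGTCA at -115 and 43 and GTTAAT at -89 from the start site, while the windows of Apoa1 and Apoa4 held none of the 5 letter strings. Over 32851 windows, AGGTCA was in 16.3%, GTTAAT was in 7.1% and TATAAA was in 13.6%, on either strand and with overlaps between strings allowed. The string CAAAGTCCA was in 0.475% of all windows, the string CAAAGGTCA was in 0.478%, and both were in 0 of the 12. A match describes the letters in the window and says nothing of binding.

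Within groups the 10 genes varied largely apart from one another. Over the 15 libraries, as deviations from the group means on a log2 scale, 27 of 45 pairs had a Pearson r above 0, with a median of 0.08 and 0 pairs above 0.7. The highest were Apoc3 with Apoe (r = 0.65, rho = 0.62) and Apoa5 with Apoc3 (r = 0.63, rho = 0.64), and the latter was 0.17 without the 2 libraries farthest from the median. The lowest was Apob with Apoc2 (r = -0.45, rho = -0.38). All points of a pair share library depth and composition. Among the genes most like Apoa4 by this measure were Tmem30b (r = 0.94), Fam175a (0.93), Mfsd6 (0.88) and Ebna1bp2 (0.88), over 15 libraries in which young WT 1 and 2 are the extremes, and none of these was called in any comparison.

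A list of other apolipoproteins, HDL-borne proteins and factors that edit the Apob mRNA had 14 tested genes, of which 5 rose with age and 0 fell. Over all genes tested, 9.92% were called higher with age and 8.91% lower. The 5 were Saa1, Saa2, Saa4, Lcn2 and Pon3, a lactonase carried on HDL (0.26); the apolipoprotein genes Apoc4, Apof, Apoh, Apom, Apon and Clu and the editing factors Apobec1 and A1cf passed no test. Among the acute-phase proteins the changes were Saa2 by a log2 fold change of 2.45 (SE 0.652, adjusted p = 0.0172, edgeR), Saa1 by 1.89 (SE 0.611, adjusted p = 0.041), Lcn2, a carrier of siderophores, by 1.71 (SE 0.557, adjusted p = 0.042) and Saa4, the constitutive member, by 1.12 (SE 0.177, adjusted p = 0.000991). Only Saa4 had groups that did not overlap among these 4, at 106 ± 26.1 CPM in young WT and 229 ± 46.3 in old WT, and it alone was called in old KO against young WT (1.04). The count with age was 1 without old WT 10, 2 without young WT 1 or 2, 3 without young WT 4, 3 with limma voom, 2 with the 10 libraries of the contrast and 1 with the replicate block. Between the old groups, 0 of 14 were called by edgeR, DESeq2 and limma voom (4 at an unadjusted p under 0.05), and the largest values were -1.68 for Saa1 (adjusted p = 0.264) and -1.60 for Saa2 (adjusted p = 0.317).

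Of 32 genes of VLDL assembly and secretion, 5 rose and 9 fell with age, with a median log2 fold change of -0.14. Over all genes tested, 18.8% were called with age and 0.533% between the old groups. Leaving out young WT 4, 1 of the old WT livers 5 and 10, or 1 of the old KO livers 2 and 5 gave 4 that rose and 5 that fell, total counts gave 5 and 5, and the replicate block gave 3 and 4. Cidec, a lipid-droplet protein, fell from 45.8 ± 42.8 to 4.99 ± 4.48 CPM (log2 fold change -3.21, adjusted p = 0.0036, edgeR). The carboxylesterases Ces3b (-1.67) and Ces3a (-1.13), which hydrolyse stored lipid, and Sort1, a sorting receptor that binds APOB (-0.99), also fell. Ces3b was the 1 gene of the 32 called in old KO against old WT, higher in old KO at 96.7 ± 8.08 CPM than in old WT at 44.5 ± 18.6 (log2 fold change 1.12, SE 0.237, adjusted p = 0.0459), and limma voom called 0 of the 32. That call was lost when any 1 library but young WT 2 or young WT 6 was left out, with the 10 libraries of the contrast and with the replicate block. From young WT to old KO, 7 rose and 8 fell, where 23.3% of all genes were called. Among them were Cidec at -4.10, the carboxylesterase Ces1g at 0.89, Dgat2, which makes triglyceride, at 0.71 and Svip at 0.63.

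Of 19 genes of HDL formation, lipases and remodelling, 2 rose and 2 fell with age, where 18.8% of all genes tested were called. Pltp, which transfers phospholipid to HDL, rose by 0.91 and Npc2, which carries cholesterol out of lysosomes, by 0.40, while Npc1 (-0.45) and Abca1, the transporter that lipidates APOA1 (-0.34), fell. The 4 calls became 1 without old WT 5 or old WT 10, 2 without young WT 1, 3 or 4 or old WT 1 or 4, and 0 with the replicate block, and with total counts 3 rose and 0 fell. From young WT to old KO, 3 rose and 4 fell, among them Pctp (-0.99), Abcg1 (-0.61) and Npc1 (-0.48), where 23.3% of all genes were called. Between the old groups, 0 of 19 were called by edgeR, DESeq2 and limma voom (5 at an unadjusted p under 0.05), and the largest values were those of Lpl, lipoprotein lipase itself (-1.02, adjusted p = 0.307), and Abcg1 (-0.61, adjusted p = 0.168).

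Of 15 lipoprotein receptors and their regulators, 2 rose and 3 fell with age, where 18.8% of all genes tested were called. Vldlr, a receptor of triglyceride-rich particles, rose by 1.64 on the log2 scale with no overlap (edgeR adjusted p = 0.00139). Mylip, a ubiquitin ligase, fell by 0.87 on the log2 scale and the scavenger receptor Stab2, also an endothelial marker, by 0.56. The 5 calls became 3 without young WT 1 or old WT 5 and 1 with the replicate block. From young WT to old KO, 3 rose and 4 fell, with Vldlr at 1.41 and Mylip at -0.93, where 23.3% of all genes were called. By genotype, 0 of 15 were called by edgeR and limma voom and 1, Apobr, by DESeq2 (3 at an unadjusted p under 0.05 by edgeR), with Apobr, a macrophage receptor, at -0.88 (adjusted p = 0.109).

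Of 35 regulators of these genes' transcription, 5 rose and 3 fell with age, where 18.8% of all genes tested were called. The clock repressor Nr1d1 (-1.46) and the coactivator Ppargc1a (-0.98) fell, and the oestrogen receptor Esr1 (0.70) rose. The 8 calls became 2 without old WT 4, 3 without young WT 2 or 4, 4 without young WT 3 or old WT 1 or 10, 5 without old WT 5 and 1 with the replicate block, and 1 gene fell with total counts, upper quartile factors or limma voom. From young WT to old KO, 9 rose and 3 fell, where 23.3% of all genes were called. Among them were the repressor Nr0b2 at 1.32, Srebf2, the master regulator of cholesterol synthesis, at 0.89, Ppargc1b at -0.98 and Nr1d1 at -1.47. For old KO against old WT, 0 of 35 were called by edgeR, DESeq2 and limma voom (3 at an unadjusted p under 0.05), and the largest values were 0.76 for Nr0b2 (adjusted p = 0.372) and 0.47 for Cebpb (adjusted p = 0.63).

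**Figure D5:**
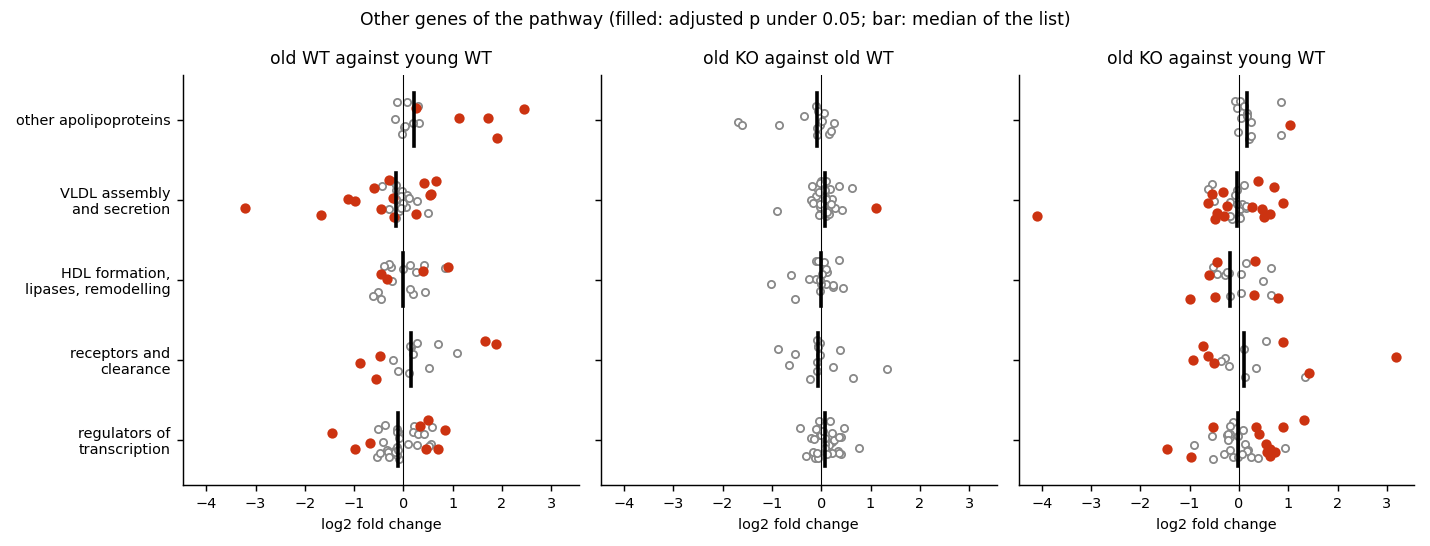
Log2 fold change of the tested genes of 5 lists of the pathway in the 3 comparisons; each point is a gene, spread at random in height within its row, filled where it passed the test, and the bar is the median of the list. In old KO against old WT 1 point of the 5 lists is filled, Ces3b at 1.12.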

How the data were processed

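Total RNA of 15 livers (5 young WT, 5 old WT, 5 old KO) was made into stranded, poly(A)-selected libraries and read as single 50-base reads. Per the study's methods and the labels' processing notes, reads were mapped to mm9 with TopHat2 2.0.11 and the authors deposited raw HTSeq counts per gene, without normalization; their differential expression used DESeq2 1.18.1. The strand setting and annotation of the counting are not given in the sources used here, which bears on genes that share exon bases.

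From the deposited counts, genes passing filterByExpr were fitted over all 15 libraries with edgeR 4.0.16 in R 4.3.3 (TMM factors, quasi-likelihood test, Benjamini-Hochberg adjustment over 14258 genes), after the fit had been tested on simulated data. CPM used TMM library sizes, and RPKM divided CPM by the exon length of GENCODE vM1 (NCBIM37, the build of the files). Standard errors came from the test statistic, and intervals are 95%. Exact two-sided permutation tests used log2(CPM + 0.1) or log2 ratios. Correlations used deviations of log2 CPM (prior count 2) from group means.

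Alternatives were RLE, upper-quartile and total-count scaling, library sizes without the 50 most abundant genes, DESeq2 1.42.0, limma voom (limma 3.58.1), no filter, the 10 libraries of a contrast, a replicate block and each library left out. The labels do not say whether replicate numbers pair samples, and the main fit did not use them. Same-numbered libraries deviated together with correlations from -0.15 to 0.08, which cannot settle whether they shared a litter or a batch. The 30 pairs of libraries within groups differed by more than sampling noise (chi-square per degree of freedom 18.2 to 118). The intervals come from a fit that estimates the spread between livers of a group, so they include variation between the mice measured. With 5 a group, that spread is estimated from few animals.

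The 10 genes are all named. From each other list, up to 4 called genes with the largest change were named per contrast, or the 2 largest where none passed. The 5 genes most like the member with the largest change were also named. Genes outside this rule (Apoc4, Gm10680, Alb, Fabp2, Lgals4, the other genes of the list with Saa1, macrophage and gut markers) were chosen after their values were seen. Some genes that the rule would name are not reported here. The members and lists were chosen with earlier results of these data known. Of 240 list entries, 228 matched by symbol, 6 by synonym, 4 repeated a gene already listed and 2 had no match. Sequences are from RefSeq.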

Additional observations from a re-analysis of the deposited data

Results flagged for a closer look

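In each group of 5, the highest and the lowest library of each of the 10 genes was examined for a gap to its nearest neighbour above Dixon's critical value of 0.71 of the group's range. Of 30 groups, 5 held such a library, where chance gives about 1 in 20.

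Apoa1 stood at 10239 CPM in young WT 2, where the other young WT livers ranged from 6640 to 7667 CPM. Apoa2 stood at 3407 CPM in old KO 1, below the other old KO livers at 4706 to 4852 CPM. Mttp stood at 671 CPM in old WT 10, above the other old WT livers at 390 to 445 CPM.

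Young WT 6 was low in Apoa5 and Apoc3, which lie in the Apoa1 cluster with Apoa4 between them. Apoa5 stood at 953 CPM, below 1300 to 1389 CPM in the other young WT livers. Apoc3 stood at 654 CPM, below 1055 to 1189 CPM. Apoa4 was not low in that library, at 420 CPM against 293 to 1109 CPM in the other young WT livers. In the same library the summed CPM of the hepatocyte markers was the lowest of the 15, at 106755. Its part in the Apoa5 and Apoc3 values was not tested.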

How the results depend on the processing

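Of the 4 members called in old WT against young WT, 1 (Apoa1) was called with a replicate block, and leaving out 1 library gave 1 to 5. The count was 2 without young WT 1, 1 (Apoc2) without young WT 2 and 1 (Apoc2) without old WT 5. For old KO against old WT, DESeq2 called 1 (Apoc2), the replicate block called 0, and leaving out 1 library gave 0 to 0. Of the 4 called in old KO against young WT, 2 (Apoa4 and Apoc1) were called without a filter on low counts, with the 10 libraries of the contrast alone and with the replicate block, and leaving out 1 library gave 2 to 5. That count was 2 (Apoa4 and Apoc1) without young WT 3, old KO 4 or old KO 5. The causes were not tested. Values near 0 changed sign for Apoe with age (0.038 with total counts, and from -0.066 to 0.017 when 1 library was left out), for Apoa2 with age (from -0.0019 to 0.15) and for Mttp between the old groups (from -0.24 to 0.041). So did the difference in the log2 ratio of Apob to Mttp, which ranged from -0.032 to 0.17 with age, from -0.11 to 0.11 between the old groups and from -0.028 to 0.14 for old KO against young WT. Over all genes, the replicate block called 899 with age and 6 between the old groups, against 2685 and 76. The block fits a term for each replicate number, which leaves fewer degrees of freedom than the main fit. Young WT and old WT share only the numbers 1 and 4, so the block compares them with less power. Between the old groups, total counts called 121 (11 higher, 110 lower), DESeq2 305 and limma voom 23, against 16 higher and 60 lower, and leaving out 1 library gave 9 to 108. With age, 1748 genes were called without young WT 1, and total counts gave 1605 higher and 841 lower, against 1415 and 1270. All other alternatives kept the members' counts within 1.5 times.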

Other observations

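Lists for the other cells of the liver were counted in the same fit. Over all genes tested, 18.8% were called with age (9.92% higher, 8.91% lower) and 23.3% in old KO against young WT. In old WT against young WT, 7 of 13 leukocyte and lymphocyte markers rose and 0 fell, 4 of 17 Kupffer cell and macrophage markers rose and 1 (Cd163) fell, 0 of 8 endothelial markers rose and 2 fell, and 1 of 6 bile duct markers rose. Among 10 stellate cell and fibroblast markers 1 rose and 1 fell. Of 8 adipocyte and mesothelial markers, 3 passed the filter on low counts and 0 were called in any comparison by edgeR, DESeq2 or limma voom (0 at an unadjusted p under 0.05). Of 18 hepatocyte markers, 2 rose and 2 fell with age, among them Cps1, the first enzyme of the urea cycle (log2 fold change -1.27, adjusted p = 0.0197, edgeR), and Trf, transferrin (0.62, adjusted p = 0.00166). In old KO against young WT, 7 hepatocyte markers rose and 1, Cyp3a11, fell (-1.20, adjusted p = 0.0427).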
